A study of Mus musculus with 81 samples.

Results

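Accessibility was followed at 10 genes that the transcription factor p53 is known to activate: Cdkn1a, Btg2, Ccng1, Gadd45a, Mdm2, Bbc3, Bax, Phlda3, Aen and Sesn2. They were chosen by name, as 10 of 21887 protein-coding genes, and each locus was the gene model with 10 kb on each side. The loci held 45 of the 139000 regions counted in the aphidicolin experiment, and all 45 passed the filter on low counts. Across the pooled peak lists they held 106 separate sites.

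p53 is a tetrameric DNA-binding protein that is stabilised after DNA damage or stalled replication and binds a consensus made of a pair of decamers. Its targets stop the cell cycle, start apoptosis, adjust metabolism and, through Mdm2, remove p53 itself. p53 and Cdkn1a are known barriers to the reprogramming of fibroblasts.

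Open chromatin was measured by ATAC-seq, in which a transposase cuts accessible DNA, and by repli-ATAC-seq, in which DNA made during a pulse of the thymidine analogue EdU is pulled down first. In the aphidicolin experiment mouse embryonic fibroblasts (MEF) were given 2 µg/mL doxycycline. One group of 3 received 5 µg/mL aphidicolin, an inhibitor of replicative DNA polymerases, from 4 h after induction for 10 h, and the other group of 3 was untreated. The MEF were heterozygous for Col1a1::tetOP-OKSM, which encodes the reprogramming factors, for R26-M2rtTA, which switches them on with doxycycline, and for Oct4GFP, on a Black6-129X1/SvJ background. Every MEF group here, the untreated one included, carried these alleles and received doxycycline, so no MEF group lacks the reprogramming factors.

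In the time courses each group of 3 samples had 1 pooled peak list. Wild-type 129/Ola embryonic stem (ES) cells were sampled at 0, 9 and 48 h as FGF2 and Activin A turned them into epiblast-like cells (EpiLC). MEF were sampled at 6, 12 and 36 h of doxycycline. Nascent chromatin was taken after 10 min in 20 µM EdU, mature chromatin 2 h after the label with 10 µM thymidine, and bulk chromatin from DNA that the capture left unbound; MEF have separate bulk lists for the nascent and the mature arm. At 60 h MEF were sorted by a dye diluted at each division into fractions named Q1 to Q4. Which of them held the brightest cells is not stated in the labels.

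The 6 count libraries held 55158844 to 78677381 counts with aphidicolin and 41183769 to 49440524 counts untreated. Letters a, b and c stand for the libraries of a group, since the number in a column is tied to no sample. Of the fibroblast markers with an annotated start, 6 of 6 had a start-site peak in every MEF bulk list, against 3 of 6 in every ES and EpiLC bulk list. All 6 naive ES cell markers with a start had a peak in the ES and EpiLC bulk lists, against 3 to 5 of 6 in the MEF bulk lists. The formative markers did not separate the groups, since all 3 with a start had a peak in every bulk list. Nascent lists were short (3222 to 27693 peaks) beside bulk lists (137173 to 203188 peaks), and the nascent and mature lists of MEF at 6 h were the shortest of their kinds (3222 and 14281 peaks).

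The p53 consensus was searched for in the promoters, to set the peaks beside the letters they cover. RefSeq promoter windows of the assembly GRCm38.p6, from 250 bases before to 50 bases after each annotated start, were found for all 10 genes. The consensus is 20 bases with no spacer and reads the same on both strands. Up to 3 mismatches were allowed. At least 1 match was present at 6 of the 10 genes. Matches are shown in capitals on the gene's own strand, with their flanking bases.
Cdkn1a: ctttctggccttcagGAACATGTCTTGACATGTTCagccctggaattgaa
Ccng1: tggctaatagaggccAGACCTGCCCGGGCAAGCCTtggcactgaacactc
Gadd45a: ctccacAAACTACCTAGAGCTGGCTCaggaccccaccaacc
Bbc3: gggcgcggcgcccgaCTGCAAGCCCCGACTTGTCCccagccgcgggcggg
Bax: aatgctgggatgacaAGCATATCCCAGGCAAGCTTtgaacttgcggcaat
Aen: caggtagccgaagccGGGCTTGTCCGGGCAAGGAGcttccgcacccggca
Ccng1 held a second match, so the closer of its matches is shown. It and the Cdkn1a match had 1 mismatch each, a degree of likeness reached in the promoters of 0.107% of 27025 genes. Those in Gadd45a, Bbc3, Bax and Aen had 3 mismatches, and 7.20% of genes had a match that close or closer. The best matches in Btg2 (4 mismatches), Mdm2, Phlda3 and Sesn2 (5 mismatches each) fell outside the limit. These matches describe letters and do not show binding.

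The Cdkn1a match lies at chr17:29090928-29090947, 51 bases before the upstream of 2 annotated starts, and the Ccng1 match at chr11:40755462-40755481, 195 bases before its start. The second Ccng1 match, with 3 mismatches, begins 142 bases before the start. Their whole windows, chr17:29090729-29091028 (plus strand) and chr11:40755237-40755536 (minus strand), are given with each match in capitals, because the sites differed in how many lists covered them.
Cdkn1a: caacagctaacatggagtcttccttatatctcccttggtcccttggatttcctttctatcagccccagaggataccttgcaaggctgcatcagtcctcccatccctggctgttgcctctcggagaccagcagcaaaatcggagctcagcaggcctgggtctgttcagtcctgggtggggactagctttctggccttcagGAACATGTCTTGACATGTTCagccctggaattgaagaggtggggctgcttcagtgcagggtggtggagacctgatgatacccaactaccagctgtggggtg
Ccng1: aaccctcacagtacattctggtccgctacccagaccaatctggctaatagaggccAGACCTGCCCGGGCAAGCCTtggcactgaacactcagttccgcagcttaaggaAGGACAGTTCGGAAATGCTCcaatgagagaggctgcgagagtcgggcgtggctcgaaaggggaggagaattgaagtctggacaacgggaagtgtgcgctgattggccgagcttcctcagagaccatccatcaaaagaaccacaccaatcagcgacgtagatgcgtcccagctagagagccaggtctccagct
A peak covered the Ccng1 match in 24 of 25 pooled lists and in 6 of 6 lists of the aphidicolin experiment. The Cdkn1a match was covered in 7 of 25 pooled lists and in 0 of 6 lists of the aphidicolin experiment. The 7 lists were ES bulk at 0 and 9 h, EpiLC bulk at 48 h, ES mature at 9 h, MEF bulk at 36 h in the nascent arm, and the fractions Q3 and Q4. No list from MEF at 6 or 12 h covered it. The matches in Aen, Gadd45a and Bbc3 were covered in 24, 23 and 23 of 25 lists, and the Bax match, which lies beyond the edge of most Bax start peaks, in 1 of 25.

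Accessible start sites were a shared feature of the 10 genes. Each had a peak within 1 kb of an annotated start in all 9 bulk lists, all 4 sorted fractions and all 6 lists of the aphidicolin experiment, where 65.5% to 72.0% of 17492 genes had one in the bulk and per-sample lists. Over the 25 pooled lists, 235 of 250 pairs of gene and list had a start peak. Of the 17492 genes, 10.67% to 59.91% had one in nascent lists and 30.72% to 66.95% in mature lists. The share was 56.72% to 62.05% in the fractions, and MEF at 6 h had the lowest nascent and mature shares. The 15 missing pairs were 7 genes in MEF nascent chromatin at 6 h, 6 genes in MEF mature chromatin at 6 h, Bax in ES nascent chromatin at 0 h and Cdkn1a in MEF nascent chromatin at 36 h. The last list and MEF mature chromatin at 6 h did hold a Cdkn1a peak further than 1 kb from a start. It overlapped the wide region counted as the Cdkn1a start in the aphidicolin experiment. Ccng1 and Gadd45a, a cyclin and a stress-induced growth arrest protein, were the genes whose start peak was in all 25 lists.

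The strength of the start peaks is given by the peak caller's score, the authors' value, as a percentile among all peaks of each list. Percentiles were not computed for the starts of all genes. Start sites are strong in general: of 10917 start-site regions counted in the aphidicolin experiment, 6456 lay in the top decile of signal. Over the 9 bulk lists the Ccng1 start stood between the 99.0th and 99.9th percentile, and Gadd45a between 96.9 and 99.9. Aen, a p53-induced nuclease, ranged from 97.3 to 99.0, Sesn2 from 91.7 to 98.8, and Btg2, an antiproliferative protein, from 95.7 to 98.9. Phlda3 ranged from 86.5 to 96.5. Cdkn1a, which encodes the CDK inhibitor p21, ranged from 89.1 to 95.1, and Mdm2, the ubiquitin ligase that degrades p53, from 88.1 to 94.7. The lowest were the pro-apoptotic genes Bbc3 (68.5 to 88.1), which encodes PUMA, and Bax (69.1 to 86.4). The ranges of neighbours in this order overlap, except that those of Mdm2 and Bbc3 only meet at 88.1, and the ranges of Btg2 and Cdkn1a do not overlap.

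**Figure D1:**
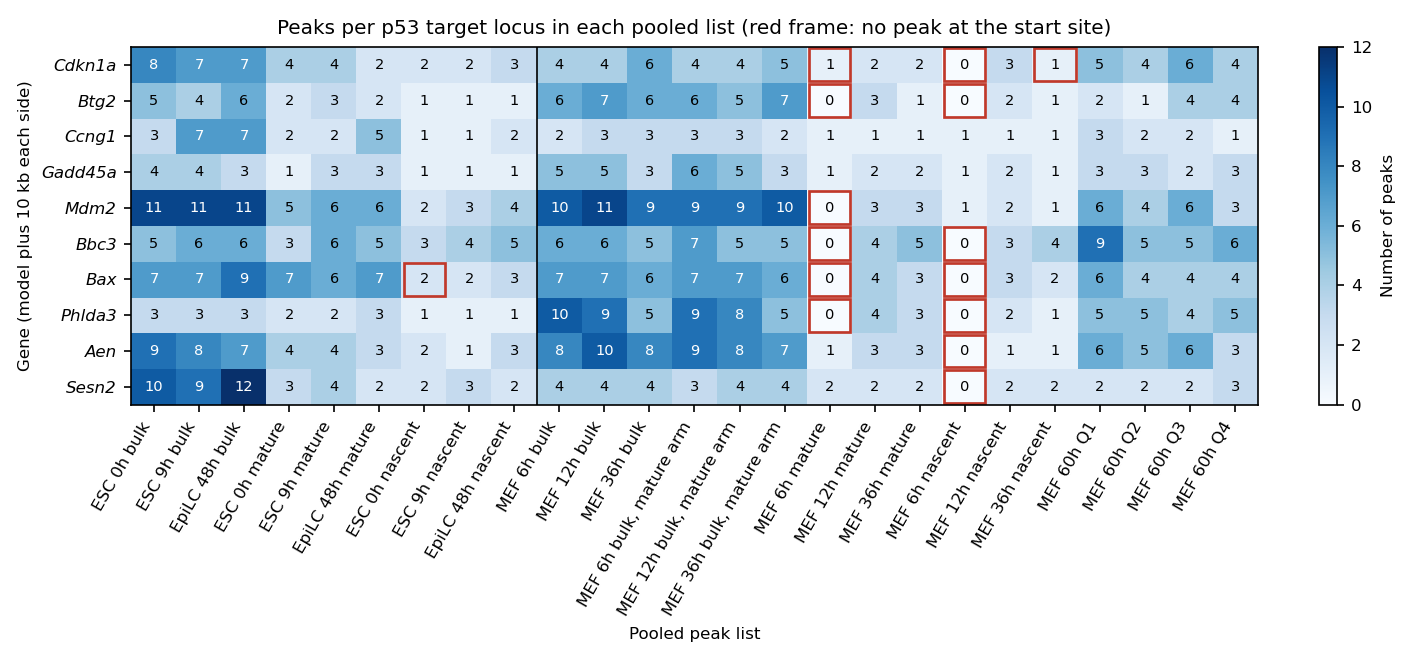
Number of peaks at each p53 target locus (rows) in each of the 25 pooled lists (columns), with ES and EpiLC lists left of the line and MEF lists right of it. Red frames mark the 15 pairs without a start-site peak, 13 of which are MEF nascent or mature chromatin at 6 h, the shortest lists.

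Away from the starts the loci differed between the ES and MEF courses. Of 93 sites away from the starts, 33 appeared in ES or EpiLC lists only, 24 in MEF lists only and 36 in both. Each group has 1 list, so these are descriptions without a test. The ES course has 9 lists and the MEF groups 16, of unlike lengths. The same split was not computed for all genes, so it is not shown to be particular to the members. Sesn2, a stress-induced regulator of TORC1 signalling, had 10, 9 and 12 peaks in bulk chromatin at 0, 9 and 48 h of the ES course, and 3 or 4 peaks in each of the 6 MEF bulk lists. Of its 15 sites, 9 were seen in ES or EpiLC lists only. Those 9 were weak, with highest scores of 62 to 259, where the median peak of the ES and EpiLC bulk lists scored 314 to 444. Phlda3, an inhibitor of Akt signalling, showed the opposite order, with 3 peaks in each ES and EpiLC bulk list and 5 to 10 in the MEF bulk lists. None of its 9 sites was seen in ES or EpiLC lists only, and 5 were in MEF lists only. Cdkn1a had 7 or 8 peaks in ES and EpiLC bulk and 4 to 6 in MEF bulk.

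Several MEF sites lay within the first kilobases of a gene. At Mdm2 a site at chr10:117708821-117709165 (mm10), centred 1765 bp downstream of the start, had a peak in all 6 MEF bulk lists and in 3 of 4 fractions, and in 0 of 9 ES and EpiLC lists. Mdm2 is known to have a p53-responsive second promoter in its first intron. Exon positions were not used here, so the site was not assigned to that promoter. At Gadd45a a site 1639 bp downstream of the start was in all 6 MEF bulk lists and in no ES or EpiLC list. A site 1308 bp downstream of the Phlda3 start (chr1:135767171-135767616) was in 5 of 6 MEF bulk lists and in no other pooled list.

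The nascent lists, which were short, held few of these sites. Of the 106 sites, 30 had a peak in any nascent list, 20 of them away from a start. At the member loci nascent lists held 17, 19 and 25 peaks at 0, 9 and 48 h in the ES course, against 65, 66 and 71 in bulk. In MEF they held 3, 21 and 15 at 6, 12 and 36 h, against 62, 66 and 55 in bulk of the nascent arm. Mature lists held 33, 40 and 38 peaks in the ES course and 6, 28 and 25 in MEF. Relative to list length the order was reversed, with 8.80 to 10.2 member peaks per 10000 peaks in nascent lists and 3.10 to 4.64 in bulk lists. All genes had a mean of 0.179 to 1.56 peaks per locus in nascent lists and 5.30 to 7.24 in bulk lists. Fewer nascent peaks were thus not particular to the members, and the rate per 10000 peaks was not computed for all genes. The 3 MEF sites above had no peak in any nascent or mature list.

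The aphidicolin experiment asks how accessibility changes in reprogramming MEF when DNA replication is blocked. At the p53 target loci 18 of 45 regions fell with aphidicolin and 5 rose (edgeR quasi-likelihood test, Benjamini-Hochberg adjusted p under 0.05 over all regions). Among all 138996 regions tested, 17.9% were called lower and 18.0% higher. The median log2 fold change was -0.19 over the member regions and 0.02 over all regions. The groups did not overlap in 26 of the 45 regions, against 46.6% of all regions. Stronger regions fell more across the genome, and the median ranged from 0.37 in the weakest decile of regions to -0.32 in the strongest. All 10 member start regions lie in deciles 9 and 10. With offsets that follow region strength, 9 of the 23 calls were made the same way. Without aphidicolin library b or c 2 regions were called higher, and without untreated library a 3 were. Without aphidicolin library c or untreated library b 11 were called lower.

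**Figure D2:**
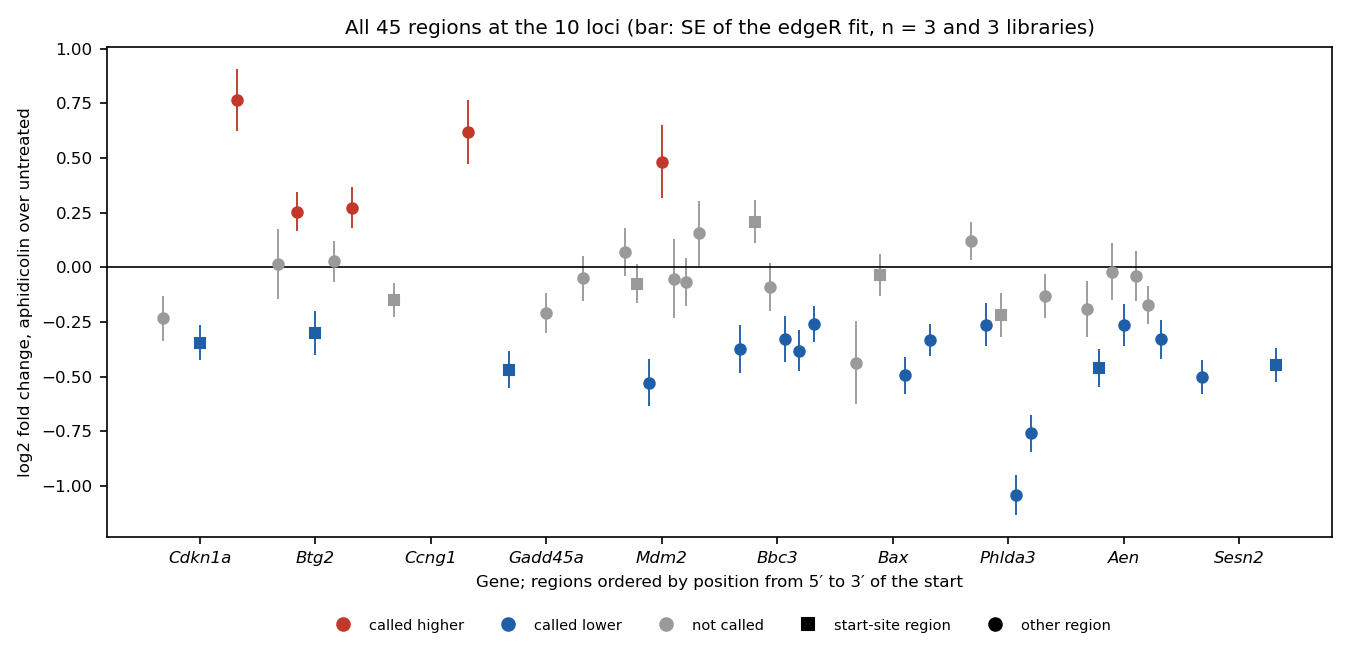
Log2 fold change, aphidicolin over untreated, of all 45 regions at the 10 loci, ordered within each gene from upstream to downstream of the start. Bars are SE from the edgeR fit of 3 and 3 libraries. 5 regions are called higher (red) and 18 lower (blue), the largest change being -1.04 at Phlda3.

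Among the start-site regions 5 of 10 fell and 0 rose, and 9 of the 10 had a fold change below 0. Of all 10917 start-site regions, 52.5% were called lower and 3.33% higher, and the medians were -0.26 over the member starts and -0.26 over all starts. With the strength-following offsets 0 of these starts were called lower and 3 (Ccng1, Mdm2 and Bbc3) were called higher.

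Of the cell cycle genes, Cdkn1a had 71.1, 63.6 and 63.7 CPM (counts scaled by TMM and library size) at its downstream start with aphidicolin, against 90.1, 83.9 and 77.8 CPM in untreated libraries. The groups did not overlap, and the log2 fold change was -0.34 ± 0.08 (SE, n = 3, edgeR adjusted p = 0.0040). The Gadd45a start had 58.0, 52.6 and 50.7 CPM with aphidicolin, against 79.6, 76.0 and 67.3 CPM untreated, a change of -0.47 ± 0.08 (adjusted p = 0.00065, edgeR). The Btg2 start fell by less (-0.30 ± 0.10, adjusted p = 0.028, edgeR), its groups overlapped, and the call was kept in 5 of 12 alternatives. It was lost when aphidicolin library b or c or untreated library a or b was left out, with library totals (-0.14, adjusted p = 0.21, edgeR), over regions found in all 6 lists (-0.23, adjusted p = 0.093, edgeR) and with strength-following offsets. The Ccng1 start, at 42.2 ± 1.97 CPM with aphidicolin and 46.7 ± 1.64 CPM untreated (SD, n = 3), was not called (-0.15 ± 0.08, adjusted p = 0.14, edgeR). The median region of like signal changed by -0.32 for each of these starts. With strength-following offsets the Cdkn1a start was at 0.13 and the Gadd45a start at -0.02, and neither was called.

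The same 4 genes hold 9 weaker regions, of which 4 rose and 5 were not called. The 5 were both Gadd45a regions (-0.05 and -0.21), the upstream Cdkn1a region (-0.23) and a pair at Btg2 (0.03 and 0.02). A region 7104 bp downstream of the nearest Cdkn1a start, at the 3′ end of the gene model (chr17:29100507-29101239), had 5.68, 4.74 and 5.14 CPM with aphidicolin, against 2.57, 2.76 and 3.85 CPM untreated. It rose by 0.76 ± 0.14 on the log2 scale (adjusted p = 0.00072, edgeR), and the groups did not overlap. A region 7497 bp downstream of the Ccng1 start (chr11:40747625-40747953) had 2.89, 3.45 and 3.12 CPM with aphidicolin, against 1.84, 1.96 and 2.40 CPM untreated, a change of 0.62 ± 0.15 (adjusted p = 0.0037, edgeR). Both calls were kept in all 12 alternatives. The median region of like signal changed by 0.05 for Cdkn1a and 0.12 for Ccng1. The other risers were Btg2 regions 4081 bp upstream and 13746 bp downstream of the start (0.26 and 0.27, adjusted p = 0.035 and 0.028, edgeR), called in 6 and 8 of 12 alternatives.

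At Mdm2 the start did not pass the test, with 37.7 ± 1.69 CPM with aphidicolin and 39.6 ± 4.91 CPM untreated (SD, n = 3; -0.07 ± 0.09, adjusted p = 0.54, edgeR). The region 1794 bp downstream of the start (chr10:117708865-117709063), the MEF site described above, had 3.94, 4.00 and 4.09 CPM with aphidicolin, against 5.22, 6.19 and 5.95 CPM untreated. It fell by 0.53 ± 0.11 on the log2 scale (adjusted p = 0.0015, edgeR), and no aphidicolin library reached the lowest untreated one. The median region of like signal changed by 0.01, and the call held in all 12 alternatives (-0.60 to -0.37). One further region, 13051 bp downstream, rose (0.48 ± 0.17, adjusted p = 0.031, edgeR). That call was kept in 8 of 12 alternatives and lost with strength-following offsets (0.37, adjusted p = 0.11, edgeR). The other 4 of its 7 regions, between -0.07 and 0.15, were not called.

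The largest change lay at Phlda3. The region 1450 bp downstream of its start (chr1:135767419-135767652) had 5.23, 5.75 and 5.73 CPM with aphidicolin, against 11.9, 11.2 and 11.4 CPM untreated. The groups were far apart, and the log2 fold change of -1.04 ± 0.09 (adjusted p = 7.7e-06, edgeR) stood at the 0.122th percentile of all regions. The region 5091 bp downstream (chr1:135770944-135771409) had 18.8, 18.3 and 16.7 CPM with aphidicolin, against 32.4, 30.6 and 28.1 CPM untreated, a change of -0.76 ± 0.08 (adjusted p = 4.0e-05, edgeR). Both held in all 12 alternatives, with ranges of -1.06 to -0.88 and -0.81 to -0.49. The Phlda3 start itself was not called (-0.22 ± 0.10, adjusted p = 0.096, edgeR).

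The pro-apoptotic genes differed among themselves. The Bbc3 start had 40.9, 38.1 and 39.7 CPM with aphidicolin, against 40.3, 33.1 and 29.3 CPM untreated. The groups overlapped through untreated library a, and the change of 0.21 ± 0.10 was not called (adjusted p = 0.11, edgeR). Without that library it was 0.34 and was called (adjusted p = 0.0014, edgeR). The start was called higher in 5 of 12 alternatives, among them strength-following offsets (0.56, adjusted p = 0.00015, edgeR). Of the other 5 Bbc3 regions, 4 were called lower, led by the one 3541 bp downstream (-0.38 ± 0.09, adjusted p = 0.0046, edgeR). That one was called in 11 of 12 alternatives and the other 3 in 5 to 7. The one 16144 bp downstream overlaps Sae1 or lies within 1 kb of a start of Sae1. With offsets that follow strength 0 of the 4 were called (adjusted p = 0.072 to 0.60, edgeR). The Bax start was not called (-0.04 ± 0.10, adjusted p = 0.79, edgeR). A region 5837 bp downstream fell to 12.3 ± 0.58 CPM with aphidicolin, against 17.3 ± 0.98 CPM untreated (SD, n = 3). The log2 fold change was -0.49 ± 0.08 (adjusted p = 0.00041, edgeR). That region overlaps the neighbouring ferritin gene Ftl1 or lies within 1 kb of a start of Ftl1. The Aen start fell to 26.0 ± 0.89 CPM with aphidicolin, against 35.7 ± 3.38 CPM untreated (-0.46 ± 0.09, adjusted p = 0.00073, edgeR). With offsets that follow strength the Aen start was at -0.14 and not called (adjusted p = 0.12, edgeR).

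Both regions of Sesn2 fell. Its start had 53.1, 50.1 and 49.4 CPM with aphidicolin, against 73.5, 68.6 and 65.8 CPM untreated (-0.45 ± 0.08, adjusted p = 0.00049, edgeR). The region 5186 bp upstream had 20.9, 19.9 and 20.3 CPM with aphidicolin, against 27.9, 28.9 and 29.7 CPM untreated (-0.50 ± 0.08, adjusted p = 0.00023, edgeR). Neither pair of groups overlapped. The upstream call was kept in all 12 alternatives, whereas the start was at -0.01 with offsets that follow strength.

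**Figure D3:**
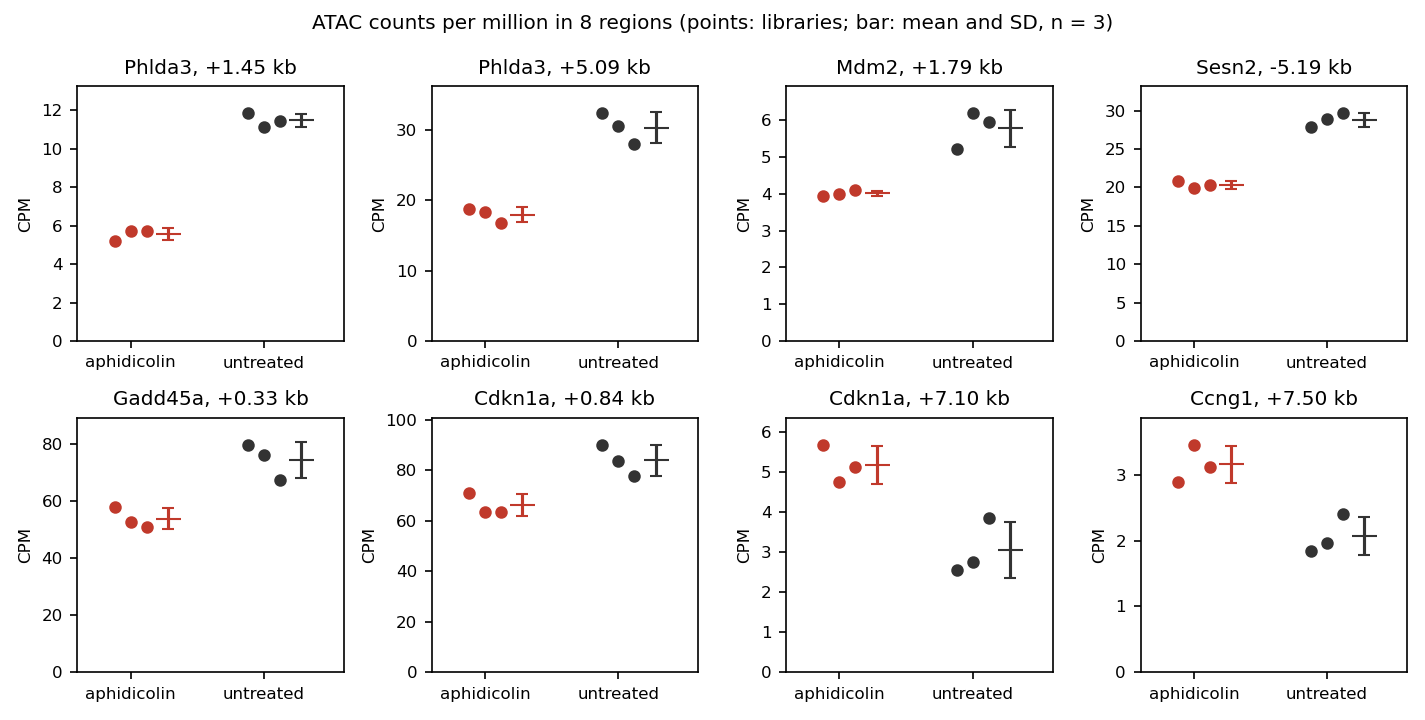
CPM in each library for 8 regions named by gene and distance from the nearest start, aphidicolin left and untreated right; bars are mean and SD of 3 libraries and axes start at 0. The groups do not overlap in any of the 8 regions; the 2 on the right of the lower row are higher with aphidicolin and the other 6 lower.

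**Figure D4:**
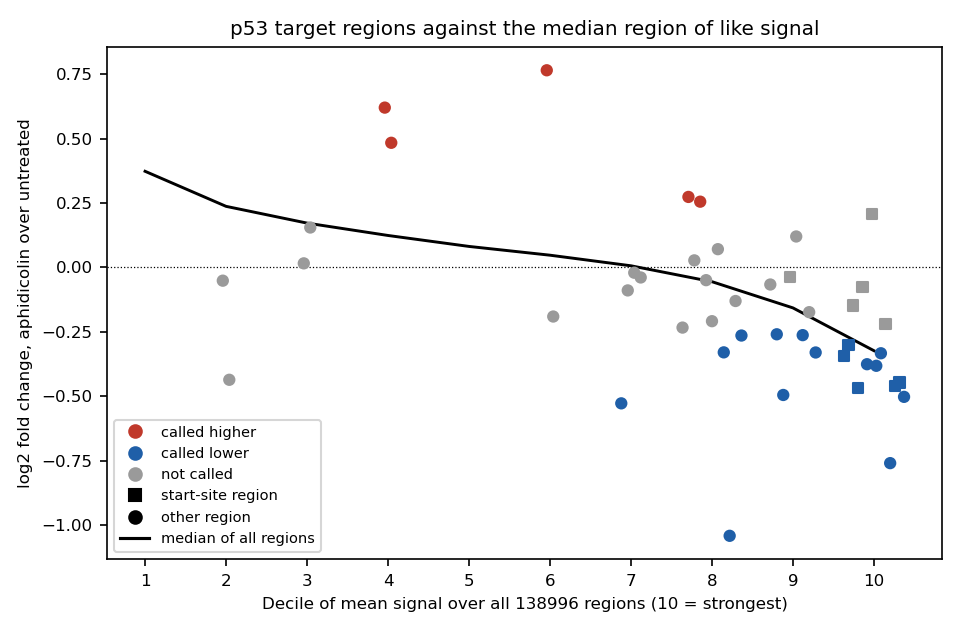
Log2 fold change, aphidicolin over untreated, of the 45 regions against the decile of mean signal they fall in, with the median of all regions as a line. The line runs from 0.37 to -0.32; the Phlda3 regions at -1.04 and -0.76 and the Mdm2 region at -0.53 lie below it, and the Cdkn1a region at 0.76 above it.

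Counts were also summed over each locus and fitted for 18144 loci, which sets changes against the median locus. Of the 10 member loci 4 fell (Sesn2 -0.27, Gadd45a -0.20, Phlda3 -0.16 and Bax -0.10) and 1 rose (Mdm2, 0.14 ± 0.03, adjusted p = 0.0063, edgeR), where 26.1% of all loci were called lower and 25.5% higher. Scaled by the region table, the median of all loci was -0.20 in place of 0.00, 6 member loci were lower and 0 higher, where 55.6% of all loci were called lower and 9.15% higher, and Mdm2 was at -0.06 (adjusted p = 0.34, edgeR). With regions of other genes left out at every locus, Mdm2 was at 0.09 and not called (adjusted p = 0.069, edgeR). In that setting Btg2 and Ccng1, which hold no such region, were at 0.04 each, against 0.09 each with all regions. The Bax sum, which includes regions of Ftl1 and Dhdh, was then at 0.12 (adjusted p = 0.24, edgeR). Without untreated library a 3 member loci were called higher, and without untreated library c 2 were.

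Among 8 regulators of p53, 3 loci fell and 0 rose: Trp53, the gene of p53 itself (-0.18), and the damage kinases Atm (-0.16) and Chek2 (-0.14). Of 23 other p53 pathway genes, 7 fell and 4 rose, where 26.1% of all loci were called lower and 25.5% higher. The risers were Pmaip1, which encodes NOXA (0.34 ± 0.04, adjusted p = 0.00021, edgeR), the receptor Eda2r (0.31), Perp (0.20) and Trp53inp1 (0.11). The 4 largest falls were at Plk3 (-0.24), Rps27l (-0.20), Gtse1 (-0.15) and Rrm2b (-0.14). Scaled by the region table, 7 of the 8 regulators and 14 of the 23 other genes were lower and 0 of either list higher. Of all loci 55.6% were called lower and 9.15% higher with that scaling. None of the 4 risers was then called, and Perp (0.00) and Trp53inp1 (-0.09) were not above 0. Median changes were -0.09 for the members, -0.05 for the regulators and 0.00 for the other pathway genes and for all loci.

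Peak numbers at the member loci did not separate the groups. The 3 aphidicolin libraries had 47, 57 and 51 peaks, against 51, 47 and 55 in untreated libraries (exact permutation test, two-sided, p = 1). The mean difference, 0.67 peaks, was -2.00 without aphidicolin replicate 2 and -1.33 without untreated replicate 2. The whole lists were longer with aphidicolin (148292, 163947 and 158327 peaks) than untreated (129546, 126958 and 116939 peaks). Member peaks per 10000 peaks were 3.17, 3.48 and 3.22 with aphidicolin, against 3.94, 3.70 and 4.70 untreated. These groups did not overlap, with p = 0.1, the smallest that an exact test of 3 against 3 can give. Over all genes the mean number of peaks per locus was 5.65, 6.18 and 5.98 with aphidicolin, against 5.19, 5.07 and 4.70 untreated. The rate per 10000 peaks was not computed for all genes, so the lower rate is not shown to be particular to the members.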

How the data were processed

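Per the submitters' processing notes, the build was mm10 and the tools named were MACS2 2.2.0, Bowtie2 2.2.5, cutadapt 2.2.0, bedtools 2.26.0 and SAMtools 1.4.1. Their parameters, any shift of cut sites and the counting tool are not given in the sources used here. Files deposited by the authors hold raw read counts per region for 6 libraries, and peak lists with a score per peak, 25 pooled and 6 per sample. No per-sample column was left unmapped. The bulk list of the nascent arm in MEF was assigned by elimination.

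Gene positions came from the RefSeq table of GRCm38.p6, which shares coordinates with mm10. Counts were tested with edgeR 4.0.16 (TMM, filterByExpr, glmQLFit, glmQLFTest; R 4.3.3) over 138996 regions, two-sided, with Benjamini-Hochberg adjustment at 0.05. SE was taken from the fold change and the F statistic. A start-site region overlaps an annotated start or is the nearest within 1 kb, and it may reach further than 1 kb. Named regions are each member's start region and the one of smallest p; other named ones were chosen after their values were seen. Of each further list up to 4 called loci per direction are named. On simulated counts for this comparison (139000 regions, 100 changed at each fold, fixed dispersion) 97% of 2.0-fold and 51% of 1.5-fold changes were recovered. The real fit called 18.0% of regions higher and 17.9% lower, so these rates do not give its sensitivity. The labels do not say whether replicates were separate cultures, so p-values may measure technical spread. Members and lists were chosen with earlier results of these data known.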

Additional observations from a re-analysis of the deposited data

How the results depend on the processing

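Of the 45 member regions 5 were called higher, against 3 with DESeq2 and 8 with strength-following offsets, and 18 lower, against 11 with library totals and 6 with those offsets; leaving out 1 library gave 2 to 5 higher and 11 to 20 lower. No member start was called higher, against 1 with library totals, 3 with strength-following offsets, 1 over regions found in all 6 lists and 0 to 1 without 1 library; 5 were lower, against 0 with strength-following offsets. Of the 10 loci 1 was higher, against 2 with library totals, 3 with strength-following offsets, 2 with no flank, 0 without regions of other genes, 3 without the start region, 0 with region-table scaling (added after seeing the data) and 1 to 3 without 1 library; 4 were lower, against 2 with strength-following offsets. Of the 23 region calls, 7 were kept in all 12 alternatives.

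Whether column numbers pair the libraries was not settled. Deviations from the group mean correlated at 0.26, 0.01 and 0.15 between same-numbered libraries. Aphidicolin libraries a and c correlated best with their own number, and b with untreated c (0.135). Deviations among 3 libraries depend on each other, so these values cannot decide it. With a replicate block by column number 30014 regions were called higher and 30446 lower, against 25061 and 24874 without it. With the replicate block 1 member start and 2 loci were called higher, against 0 and 1 without it.

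Single log2 values changed sign as follows. Strength-following offsets gave 0.13 at the Cdkn1a start, 0.052 at Btg2, 0.23 at Ccng1, 0.29 at Mdm2, 0.17 at Bax and 0.13 at Phlda3. Library totals gave 0.0086 at the Ccng1 start, 0.084 at Mdm2 and 0.12 at Bax. Regions with a peak in all 6 lists gave 0.00082 at the Mdm2 start and 0.039 at Bax. Without 1 library the Mdm2 start ranged from -0.143 to 0.0225 and the Bax start from -0.123 to 0.0696, both highest without untreated library a. Without its start region the Cdkn1a locus was at 0.22, Gadd45a at 0.0042 and Bbc3 at -0.19. Region-table scaling gave -0.11 at Btg2, -0.11 at Ccng1, -0.060 at Mdm2 and -0.16 at Bbc3. No flank gave -0.11 at Btg2 and 0.16 at Bax, a flank of 50 kb -0.074 at Bbc3, and leaving out other genes' regions 0.12 at Bax. Without 1 library the Bbc3 locus ranged from -0.0049 (untreated c left out) to 0.0919.

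The change in member peaks between the last and first bulk lists was 6 in the ES course, against 1 with no flank and 12 with 50 kb. It was -7 in MEF, against 4 with no flank, -26 with 50 kb and 7 with lists cut to equal length, and -9 in the mature arm's bulk, against -2, -34 and 4. Aphidicolin minus untreated, 0.67 peaks per library, was -8.33 at equal list length (exact permutation p = 0.1) and -2.00 to 3.00 without 1 library. The causes were not tested.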
